A study of Homo sapiens with 6 samples.

Results

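Golgi glycosyltransferases were followed after silencing of TAZ in CAOV2 human ovarian cancer cells. Members were chosen by name: genes of the FUT, GALNT, GCNT, MGAT, B3GNT, B3GALT, B4GALT, ST3GAL, ST6GAL, ST6GALNAC and ST8SIA families that carry a number, without pseudogenes and antisense genes. The rule finds 84 genes, of which 59 are among the 17211 genes of the deposited table. The other 25 are not analysed here, among them all 6 ST8SIA genes, 7 GALNT genes and 6 FUT genes. RNA was sequenced from 3 samples of cells given an siRNA against TAZ (siTAZ) and 3 given a non-targeting control siRNA (siNT). Both groups are the same line, called a cell line and also primary cancer cells in the labels. Both had 100000 cells plated, 100 pmol of siRNA with 6 µL of Lipofectamine RNAiMAX for 2 days, and harvest on day 3. TAZ, encoded by WWTR1, is a Hippo pathway coactivator that binds DNA through TEAD factors.

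Glycosyltransferases of the Golgi build the sugar chains of secreted and membrane proteins and of glycolipids, each enzyme moving a sugar from a nucleotide donor to a defined position. GALNT enzymes start mucin-type O-glycans with N-acetylgalactosamine, GCNT enzymes branch them, and MGAT enzymes set the branches of N-glycans. B3GNT, B3GALT and B4GALT enzymes lengthen the chains with N-acetylglucosamine and galactose, and FUT and sialyltransferases (ST3GAL, ST6GAL, ST6GALNAC, ST8SIA) add fucose and sialic acid, mostly as caps. In epithelial cells these chains carry the mucin and blood group related antigens.

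Levels are deposited values, which are reads divided by 1 size factor per library, given as mean ± SD of 3 libraries. The libraries held 25478595 to 34488196 reads in genes. WWTR1, the silenced gene, was at 4359, 4217 and 4258 in siNT and at 242, 277 and 280 in siTAZ (limma adjusted p = 8.0e-17). Of the ovarian carcinoma markers 10 of 12 were listed (WT1 and WFDC2 not listed), and 6 rose, 2 fell and 2 did not pass, beside 28.3% of all genes tested higher and 27.5% lower. The keratin KRT7 fell 2.66-fold, from 22847 ± 1266 to 8604 ± 879, while the adhesion genes EPCAM and CDH1 rose 2.72-fold and 2.27-fold, each past limma's threshold. The Müllerian factor PAX8 was at 28.8 ± 13.9 in siNT and 18.2 ± 3.28 in siTAZ, and MUC16 at 11.9 ± 3.67 and 7.98 ± 1.55, and neither passed. Summed ovarian markers were at 96365 to 104815 in siNT and 92387 to 100648 in siTAZ. Nearly all of this sum is keratin reads, which moved in opposite directions. KRT8 went from 35206 to 39346 and KRT19 from 14965 to 23777.5, while KRT18 fell from 27495 to 22365 and KRT7 fell as above. The sum therefore says little about the scarcer markers. Markers of gastrointestinal epithelium were 8 of 10 listed (CDX1 and GPA33 not listed), and all 8 rose in siTAZ, beside the 28.3% of all genes. Their summed level was 12831 to 13712 in siNT and 32172 to 33638 in siTAZ, and their part in the results below was not tested. None of the 7 endothelial markers was listed. Of the leukocyte markers 4 of 8 were listed (PTPRC and CD3E among those not listed), with a summed level of 151 to 161 in siNT and 283 to 339 in siTAZ. Of the fibroblast markers 6 of 9 were listed (DCN, FAP and THY1 not listed), with sums of 5609 to 6399 and 6614 to 7502. In bulk RNA, a change in the cells present and a change in RNA per cell cannot be told apart.

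The comparison asks which of these enzymes' transcripts differ when TAZ is silenced. Of the 59 members, 25 were higher in siTAZ, 15 were lower and 19 did not pass the test, which was limma with an adjusted p under 0.05 over all 17204 genes tested. That is 42.4% higher and 25.4% lower, beside 28.3% and 27.5% of all genes tested (55.8% in either direction). With at least a 1.5-fold change and a mean of at least 10 in the higher group, 14 members (23.7%) rose and 5 (8.47%) fell, beside 12.2% and 9.02% of all genes. Libraries of the groups did not overlap in 43 members (72.9%), beside 61.4% of all genes. These shares of all genes are not matched to the members for read level. Of the members, 25 had a mean of at least 1000 in a group, and 2 stayed under 10 in both. A stricter filter, at least 1 CPM (reads scaled to the library total) in 3 libraries, kept 13461 genes and 53 members. With it, 8745 of those 13461 genes were called in either direction, and 25 members were higher and 14 lower. These 25 are not all the same genes as above. The filter left out MGAT3 and MGAT4A among the higher members and B3GNT4 among the lower. ST3GAL6 and ST6GALNAC6 passed as higher with it (limma adjusted p = 0.045 and 0.046). The share of all genes in each direction was not counted with this filter. The part of read level in the shares was not tested. The median log2 fold change was 0.16 over the members and -0.0013 over all genes tested. Scaling to total counts in place of size factors gave 27 higher and 10 lower, against the 25 and 15 above. That scaling moved all genes upward too, with medians of 0.05 over all genes and 0.21 over the members. It called 9607 genes in either direction, and their share in each direction was not counted. Each of the 10 families with a listed gene but ST6GALNAC, in which 1 of 5 fell and 0 rose, held a member that rose. Every family but ST6GAL, represented by 1 gene, held one that fell. Of the 40 calls, 33 held without each single library and 7 did not, and those are named with their values beside each gene.

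**Figure D1:**
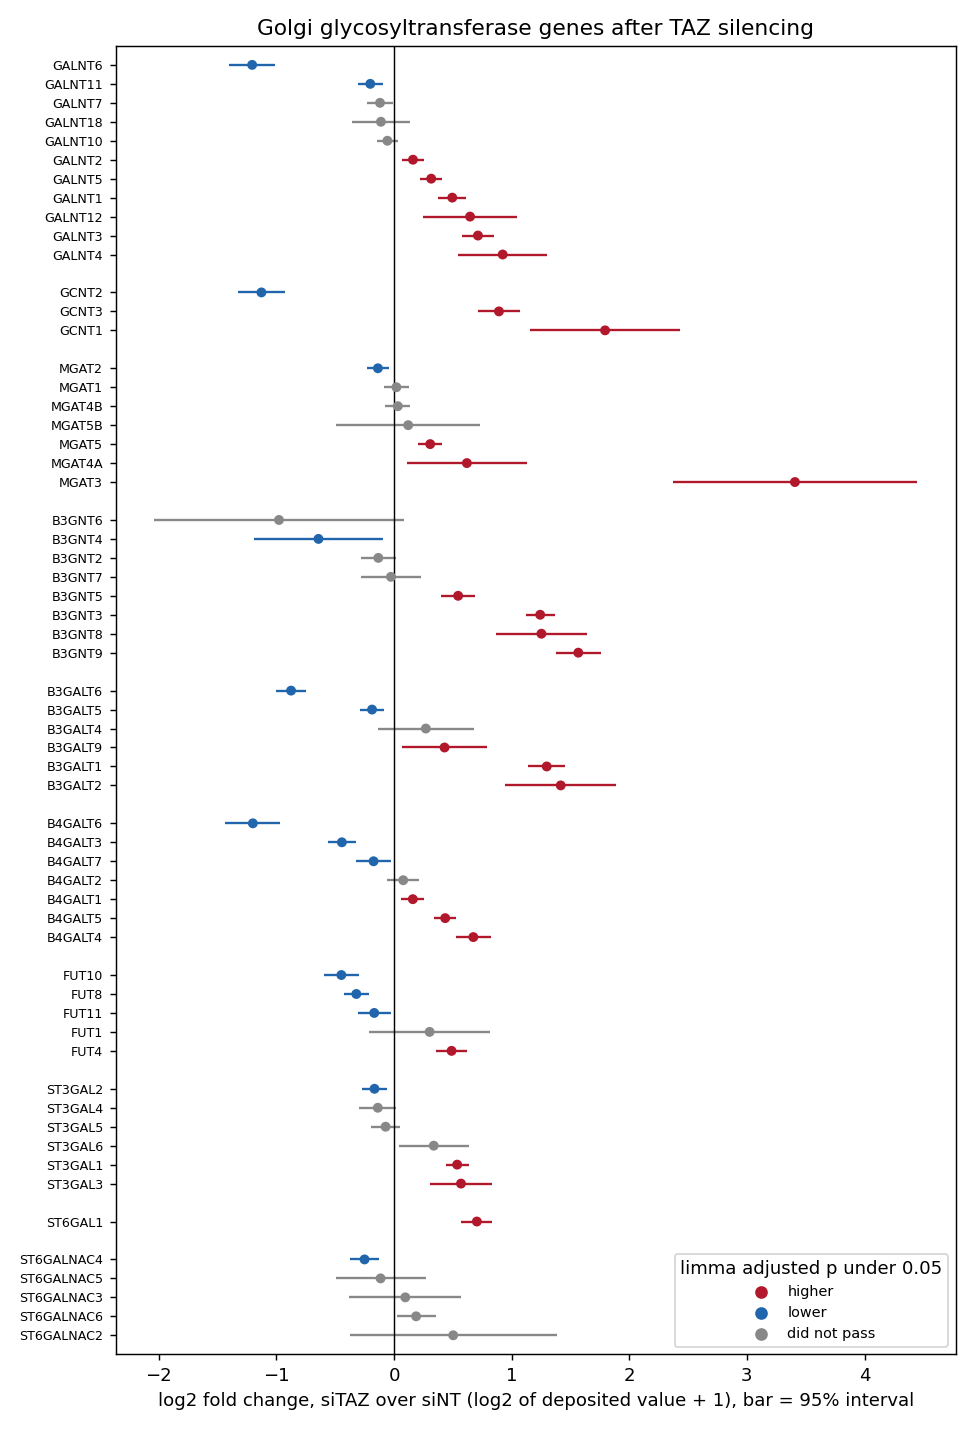
Log2 fold change of each of the 59 members, siTAZ over siNT, grouped by family, with 95% intervals as bars; red members were higher and blue members lower at a limma adjusted p under 0.05, and grey members did not pass. Most families have red and blue members side by side, and MGAT3, at 3.41, lies farthest to the right with a wide interval.

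Among the GALNT genes, which start O-glycans, 6 of 11 rose, 2 fell and 3 did not pass. GALNT6 (ENSG00000139629) had the largest fall of any member by log2 fold change. Its values were 530, 511 and 506 in siNT and 255, 199 and 218 in siTAZ, a 2.30-fold fall (change in log2 of -1.21, SE 0.09, limma adjusted p = 8.1e-09). Every siTAZ library lay below every siNT library. GALNT3 (ENSG00000115339), a close relative of GALNT6 known for glycosylating the phosphate hormone FGF23, moved the other way. It was at 568, 541 and 511 in siNT and 855, 895 and 906 in siTAZ, a 1.64-fold rise (limma adjusted p = 8.3e-08), with no overlap. GALNT1, a broadly expressed member, was at 4002, 3719.8 and 3668 in siNT and 4933, 5460.2 and 5678 in siTAZ, a 1.41-fold rise without overlap (limma adjusted p = 9.6e-07).

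Smaller rises were seen in GALNT5 (1.25-fold) and GALNT2 (1.12-fold), and GALNT11 fell 1.15-fold. The most read member of the family, GALNT10, was at 10719.7 ± 132 in siNT and 10309 ± 220 in siTAZ, and did not pass (limma adjusted p = 0.27). Its 95% interval of the log2 fold change, -0.15 to 0.03, leaves out changes of the size seen in GALNT1. GALNT7, an enzyme that acts on partly glycosylated peptides, was at 6339 ± 347 and 5837 ± 330 (limma adjusted p = 0.067), and GALNT18 at 158 ± 19.3 and 146 ± 6.4. GALNT12 was scarce and rose from 53.4, 41.7 and 32.6 to 69.6, 68.8 and 59.7 (limma adjusted p = 0.0078), and an antisense gene covers 21.1% of its exon bases in GENCODE 29. GALNT4 values were 40.8, 57.7 and 71.3 in siNT and 114, 99.1 and 104 in siTAZ (limma adjusted p = 0.0003). Of the exon bases of GALNT4, 93.2% are shared with the readthrough gene POC1B-GALNT4 on the same strand in GENCODE 29, so its reads are uncertain.

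All 3 listed GCNT genes passed, in opposite directions. GCNT2 (ENSG00000111846), the branching enzyme that makes the I blood group antigen from linear poly-lactosamine, was at 719, 637 and 735 in siNT and 270, 336 and 354 in siTAZ. It fell 2.18-fold (change in log2 of -1.13, SE 0.10, limma adjusted p = 3.0e-08). GCNT3 (ENSG00000140297), the mucin-type enzyme that makes core 2 and core 4 O-glycans in the gut, was at 252, 234 and 279 in siNT and 464, 482 and 473 in siTAZ. That is a 1.85-fold rise (limma adjusted p = 1.1e-07). GCNT1, the core 2 enzyme of leukocytes and many other cells, was scarce, with 24 siNT reads and 103 siTAZ reads summed over libraries. Its values were 5.24, 11.8 and 9.67 in siNT and 30.1, 33.04 and 32.4 in siTAZ (change in log2 of 1.79, SE 0.30, limma adjusted p = 7.7e-05). No GCNT library of one group reached into the range of the other, beside 61.4% of all genes without overlap and 55.8% called.

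The promoter windows of GCNT2 and GCNT3 are shown because these relatives moved in opposite directions after loss of a TEAD partner. RefSeq (GRCh38.p14) gives windows of 300 bases, from 250 before to 50 after a transcript start, and 43 of the 59 members matched, with 78 windows. Capitals mark GGAATG, the TEAD core motif, read on either strand (CATTCC on the other), or TGANTCA, the AP-1 motif, which reads the same on both strands. Of the 4 GCNT2 windows 2 hold the TEAD letters, starting 55 and 114 bases before the start, and the single GCNT3 window holds the AP-1 letters from 1 base before the start. The windows are chr6:10521101-10521400 and chr6:10585510-10585809 for GCNT2 and chr15:59611533-59611832 for GCNT3, all on the plus strand. Each overlaps its own gene's GENCODE 29 span and an exon of it.
GCNT2, first window: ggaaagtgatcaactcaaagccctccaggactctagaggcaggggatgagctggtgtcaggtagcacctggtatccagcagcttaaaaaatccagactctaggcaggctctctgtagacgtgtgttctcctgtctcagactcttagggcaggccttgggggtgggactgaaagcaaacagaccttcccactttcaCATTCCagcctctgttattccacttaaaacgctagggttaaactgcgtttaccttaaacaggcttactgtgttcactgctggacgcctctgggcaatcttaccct
GCNT2, second window: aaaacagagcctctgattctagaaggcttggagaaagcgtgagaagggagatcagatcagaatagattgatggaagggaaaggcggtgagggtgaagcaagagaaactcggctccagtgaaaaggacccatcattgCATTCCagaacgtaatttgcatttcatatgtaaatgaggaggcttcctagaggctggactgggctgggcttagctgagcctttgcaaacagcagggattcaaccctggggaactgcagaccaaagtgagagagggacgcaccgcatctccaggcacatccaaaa
GCNT3: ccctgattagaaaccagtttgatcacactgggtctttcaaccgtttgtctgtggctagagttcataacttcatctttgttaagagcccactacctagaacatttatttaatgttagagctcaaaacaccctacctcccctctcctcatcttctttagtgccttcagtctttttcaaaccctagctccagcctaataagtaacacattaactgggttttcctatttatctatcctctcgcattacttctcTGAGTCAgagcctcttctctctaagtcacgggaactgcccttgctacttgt
Over all members 11 of 78 windows (14.1%) hold the TEAD letters, beside 14.03% of the 35116 windows in the table. In the members called lower it was 5 of 16 windows, in GCNT2, GALNT11, FUT8 and B3GALT5, and in those called higher 2 of 27, in MGAT5 and B4GALT5. By gene that is 4 of the 9 lower and 2 of the 19 higher members with a window. The other called members, of 15 lower and 25 higher, had no window, GALNT6 and B4GALT6 among them. Median GC content was 55.5% in the windows of members called lower and 69% in those called higher, and its part in these counts was not tested. The AP-1 letters were in 4 member windows (5.13%), beside 7.71% of all windows. Windows of 1 gene share their source, and a match says only that the letters are there.

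Of the 7 listed MGAT genes, which branch N-glycans, 3 rose, 1 fell and 3 did not pass. MGAT3 (ENSG00000128268), which adds the bisecting N-acetylglucosamine that halts further branching, had 1, 2 and 0 reads in siNT and 19, 17 and 25 in siTAZ. With 3 reads against 61, the ratio was 17.1 with an exact 95% interval of 5.59 to 85.4 that covers counting error only (limma adjusted p = 1.6e-05). It was still among the scarcest members, at 18.9 ± 2.95 in siTAZ. MGAT5, which adds the branch that carries long poly-lactosamine chains, was abundant and rose 1.24-fold, from 3695 ± 97.3 to 4574 ± 167 (limma adjusted p = 3.2e-05).

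MGAT1, which opens the complex N-glycan pathway, was at 5149.6 ± 209 and 5225 ± 298, and its 95% interval of log2 fold change was -0.09 to 0.13. MGAT4B, the most read member of all, was at 13265, 14440 and 14507 in siNT and 15235, 13794 and 14139 in siTAZ, with overlapping groups and an interval of -0.08 to 0.14. Its relative MGAT4A was scarce and went from 14.7, 18.2 and 16.9 to 23.9, 28.5 and 25.6, a difference that passed (limma adjusted p = 0.038). It did not pass without siNT replicate 1 or 3 or any 1 siTAZ replicate (limma adjusted p 0.054 to 0.125). MGAT2 fell 1.10-fold, from 3302 ± 38.9 to 3002 ± 55.0 (limma adjusted p = 0.017), but an antisense gene covers 91.9% of its exon bases in GENCODE 29. It did not pass without siNT replicate 3 or siTAZ replicate 2 or 3 (limma adjusted p 0.052 to 0.077). MGAT5B, at 29.3 ± 11.4 and 31.4 ± 10.5, did not pass.

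Chain extension held the largest rises among well-read members. Of 8 B3GNT genes, 4 rose, 1 fell and 3 did not pass. B3GNT3 (ENSG00000179913), which extends core 1 O-glycans and serves L-selectin ligands, was at 986, 1035 and 1077 in siNT and 2625, 2345 and 2369 in siTAZ. It rose 2.37-fold (change in log2 of 1.24, SE 0.06, limma adjusted p = 2.4e-11), the smallest adjusted p of any member. B3GNT9 (ENSG00000237172) went from 137, 137 and 132 to 419, 414 and 376, a 2.98-fold rise (limma adjusted p = 2.8e-10), and 14.9% of its exon bases overlap C16orf70 on the opposite strand.

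B3GNT8, which works with B3GNT2 on branched N-glycans, rose from 34.6, 25.7 and 25.4 to 71.7, 68.8 and 65.7 (2.41-fold, limma adjusted p = 1.9e-05), with 18.4% of its exon bases under an antisense gene. B3GNT2, the main poly-lactosamine synthase, was at 839 ± 47.1 and 766 ± 61.7 and did not pass (limma adjusted p = 0.12). B3GNT5, which starts lacto-series glycolipids, rose 1.46-fold, from 469 ± 12.8 to 685 ± 40.3 (limma adjusted p = 4.0e-06), and MCF2L2 on the opposite strand overlaps 16.15% of its exon bases. B3GNT4, at 23.0, 42.8 and 30.2 in siNT and 20.8, 22.03 and 16.2 in siTAZ, passed as lower (limma adjusted p = 0.044), and up to 20.7% of its exon bases overlap DIABLO on the opposite strand. Without siNT replicate 2 or 3 or siTAZ replicate 3 it did not pass (limma adjusted p 0.076 to 0.22). B3GNT6, the core 3 synthase of gut mucins, was at 6.63 ± 2.12 and 3.01 ± 1.83, and B3GNT7 at 131 ± 16.2 and 128 ± 1.96, and neither passed.

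Of 6 B3GALT genes, 3 rose, 2 fell and 1 did not pass. B3GALT1 (ENSG00000172318), which makes type 1 chains, was at 447, 445 and 421 in siNT and 969, 1082 and 1189.8 in siTAZ, a 2.47-fold rise (limma adjusted p = 2.9e-10). B3GALT2, another type 1 enzyme, rose from 18.8, 16.03 and 19.3 to 38.4, 59.7 and 53.7 (limma adjusted p = 4.1e-05). In both genes every siTAZ library lay above every siNT library. B3GALT6 (ENSG00000176022), which adds a galactose of the linker that joins proteoglycan chains to their core protein, fell 1.83-fold. Its values were 1960.2, 2006 and 2063 in siNT and 1180.3, 1021 and 1089 in siTAZ (change in log2 of -0.88, SE 0.06, limma adjusted p = 2.1e-09). B3GALT5, the most read of the family and the type 1 chain enzyme of gut and pancreas, fell 1.14-fold, from 6891, 7061 and 7316 to 5843, 6413 and 6438 (limma adjusted p = 0.0038). B3GALT9, at 55.1 ± 8.05 and 74.6 ± 11.7, passed as higher (limma adjusted p = 0.040), and B3GALT4, an enzyme of ganglioside synthesis, was at 35.2 ± 3.18 and 42.9 ± 7.001 and did not pass. B3GALT9 failed without siNT replicate 3 or siTAZ replicate 2 (limma adjusted p 0.16 and 0.196), and FBXW2 on the opposite strand overlaps 16.1% of its exon bases.

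Among the B4GALT genes 3 rose, 3 fell and 1 did not pass. B4GALT5 (ENSG00000158470) and B4GALT6 (ENSG00000118276) both make lactosylceramide, the base of most glycosphingolipids, and they parted. B4GALT5 was at 7384, 7028 and 7148 in siNT and 9498, 9835 and 9811 in siTAZ, a 1.35-fold rise (limma adjusted p = 2.4e-07). B4GALT6 was at 407, 346 and 377 in siNT and 137, 183 and 173 in siTAZ, a 2.29-fold fall (change in log2 of -1.20, SE 0.11, limma adjusted p = 8.3e-08). B4GALT4, which acts on sulfated chains, went from 667, 629.6 and 682 to 949.7, 1107 and 1108, a 1.6-fold rise (limma adjusted p = 3.7e-07).

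B4GALT3, a close relative of B4GALT4, was at 1949.8, 2006 and 2049 in siNT and 1589.7, 1432 and 1399.6 in siTAZ and fell 1.36-fold (limma adjusted p = 4.7e-06). In GENCODE 29, 28.7% of its exon bases overlap PPOX on the opposite strand. B4GALT1, the main enzyme of type 2 chains and a subunit of lactose synthase, rose 1.12-fold, from 3363 ± 84.6 to 3756 ± 49.4 (limma adjusted p = 0.0068). B4GALT7, which adds the first galactose of the proteoglycan linker, was at 878 ± 28.3 and 779.6 ± 73.6 with overlapping groups (limma adjusted p = 0.044). It did not pass without any 1 of the siNT replicates or siTAZ replicate 2 or 3 (limma adjusted p 0.055 to 0.19). B4GALT2 was at 1573 ± 103 and 1661 ± 119.9 and did not pass.

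**Figure D2:**
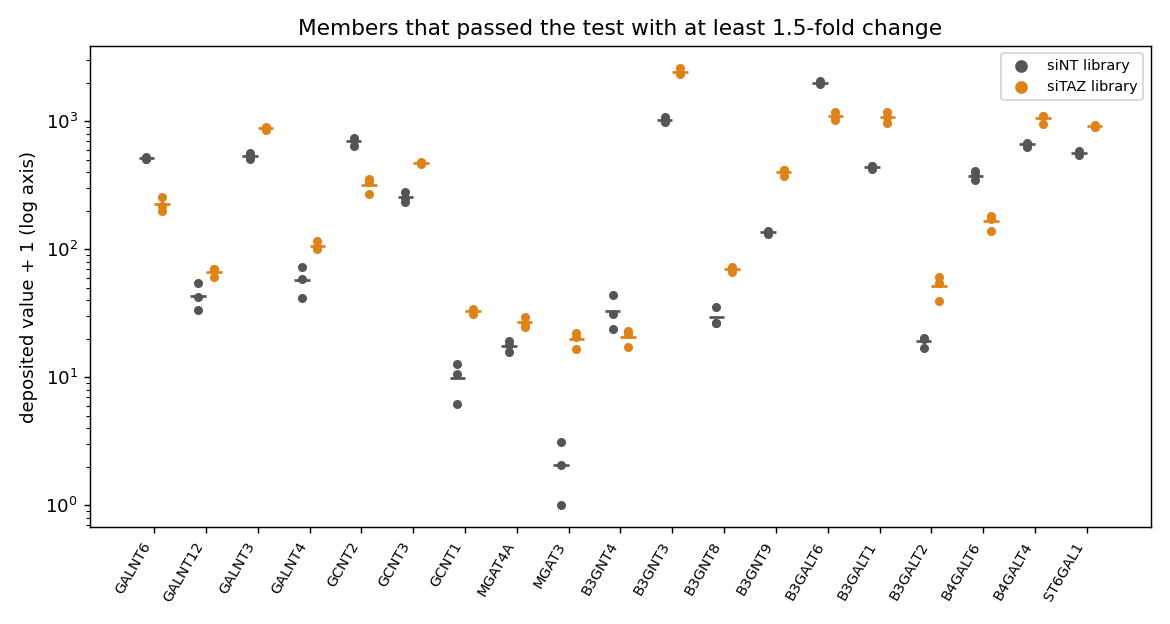
Deposited value + 1 (log axis) in each siNT library (grey) and siTAZ library (orange) of the 19 members that passed the test with at least a 1.5-fold change; short lines are group means. In each of the 19 the groups do not overlap, which is no separate result, since they were picked for a difference between the groups. MGAT3 and GCNT1 have the lowest siNT values.

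Related enzymes that share a reaction could be set against each other within each library. The log2 ratio of GALNT3 to GALNT6 was 0.06 ± 0.05 in siNT and 1.98 ± 0.22 in siTAZ, so the genes went from near-equal read levels to a large excess of GALNT3. For B4GALT5 over B4GALT6 it was 4.25 ± 0.08 and 5.89 ± 0.19, and for B4GALT4 over B4GALT3 -1.601 ± 0.06 and -0.48 ± 0.23. The ratio of MGAT4A to MGAT4B went from -9.65 ± 0.09 to -9.06 ± 0.19, and that of MGAT5 to MGAT5B from 7.003 ± 0.59 to 7.19 ± 0.42. The first 4 pairs did not overlap between groups, at an exact two-sided permutation p of 0.1 each, the smallest that 3 against 3 libraries allow (0.125 after adjustment over the 5 pairs). For MGAT5 the exact permutation p was 0.7. These pairs were chosen after the values had been seen. In the GALNT3, B4GALT5 and B4GALT4 pairs 1 gene rose and the other fell, each without overlap. Their ratios therefore had to separate the groups, and the permutation p adds nothing for them.

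**Figure D3:**
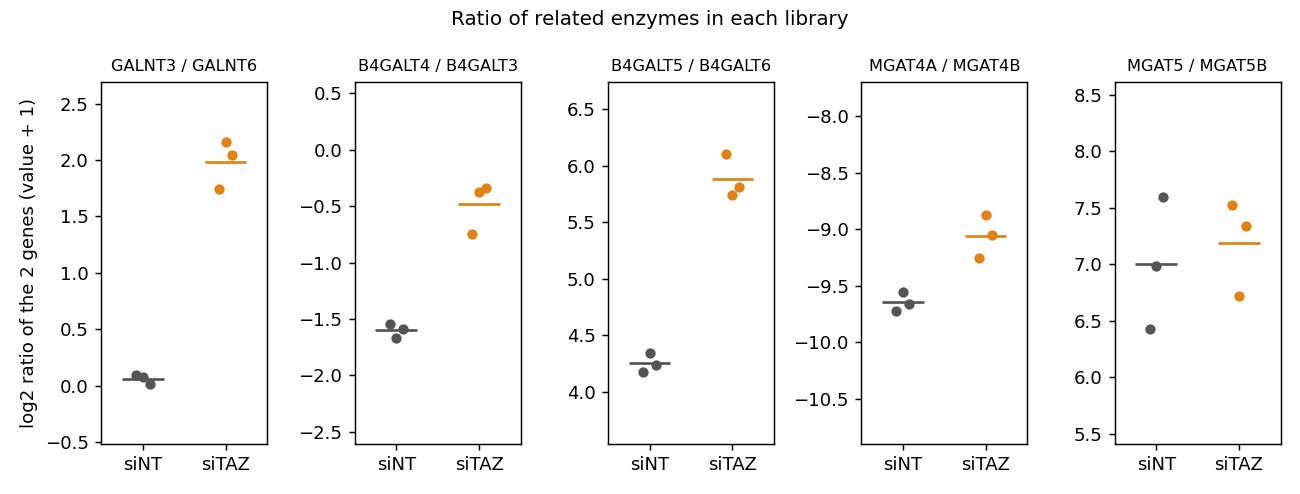
Log2 ratio of the values + 1 of 5 pairs of related enzymes in each siNT (grey) and siTAZ (orange) library, on axes of equal height, with group means as lines. The GALNT3 to GALNT6 ratio moved by 1.92 and the B4GALT5 to B4GALT6 ratio by 1.64, and the MGAT5 pair overlaps.

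Of the 5 listed FUT genes, 1 rose, 3 fell and 1 did not pass. FUT4, which makes Lewis X type structures, rose 1.40-fold, from 794 ± 39.1 to 1115 ± 52.6 (limma adjusted p = 4.0e-06). It shares 11.3% of its exon bases with the coding gene PIWIL4 on the same strand, and an antisense gene covers 10.8%. FUT8 (ENSG00000033170), the enzyme of core fucose on N-glycans, was at 1949, 1844 and 1915 in siNT and 1487, 1547 and 1535 in siTAZ, a 1.25-fold fall (limma adjusted p = 4.6e-05). FUT10 fell 1.36-fold, from 634 ± 21.7 to 465 ± 25.2, and FUT11 fell 1.12-fold, from 714 ± 38.5 to 635 ± 17.1 (limma adjusted p = 0.039). FUT11 failed without siNT replicate 2 or 3 or any 1 of the siTAZ replicates (limma adjusted p 0.051 to 0.15). FUT1, which makes the H antigen, was scarce at 24.6 ± 6.76 and 30.1 ± 4.51 and did not pass.

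Of 6 ST3GAL genes 2 rose, 1 fell and 3 did not pass, the single listed ST6GAL gene rose, and of 5 ST6GALNAC genes 0 rose, 1 fell and 4 did not pass. ST6GAL1 (ENSG00000073849), which adds alpha2,6-linked sialic acid to N-glycans, was at 545, 587 and 561 in siNT and 911, 911 and 935 in siTAZ, a 1.63-fold rise (change in log2 of 0.70, SE 0.06, limma adjusted p = 5.1e-08). ST3GAL1, which caps core 1 O-glycans, was at 2337, 2301 and 2354 in siNT and 3374, 3335 and 3435 in siTAZ, a 1.45-fold rise (limma adjusted p = 3.7e-08). In both genes the groups lay far apart relative to the spread within them. ST3GAL3 rose 1.48-fold, from 98.1 ± 12.7 to 145 ± 4.11 (limma adjusted p = 0.00095), and shares 10.0% of its exon bases with a coding gene on the same strand.

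ST3GAL2, the most read sialyltransferase and an enzyme of ganglioside termini, fell 1.12-fold, from 4656 ± 216 to 4150.1 ± 207 (limma adjusted p = 0.011). It failed without siNT replicate 2 or 3 or siTAZ replicate 2 (limma adjusted p 0.056 to 0.068). ST3GAL5, the GM3 synthase, was at 1481 ± 82.5 and 1408 ± 43.9, and its 95% interval of log2 fold change was -0.19 to 0.05. ST3GAL4 (729 ± 72.8 and 661 ± 29.3) and ST3GAL6 (70.4 ± 2.06 and 89.5 ± 10.3) did not pass, at limma adjusted p of 0.13 and 0.052. ST6GALNAC4, which adds a second sialic acid to sialylated core 1, fell 1.19-fold, from 1181, 1271 and 1300.2 to 1079, 1056 and 1017 (limma adjusted p = 0.0015). ST6GALNAC6 was at 456 ± 39.7 and 518 ± 21.9 (limma adjusted p = 0.051), with 47.0% of its exon bases shared with another gene on the same strand. ST6GALNAC2, ST6GALNAC3 and ST6GALNAC5 all stayed under a mean of 50 in both groups without passing, and ST6GALNAC2 shares 38.5% of its exon bases with a gene on the same strand.

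To set enzymes side by side, values were divided by the kilobases of the median-length coding transcript in GENCODE 29, and again by those of the longest. On the first scale the MGAT family summed to 21087 ± 898 per kilobase in siNT and 21504 ± 1044 in siTAZ, and the GALNT family to 15824 ± 427 and 16954 ± 491. With the longest transcripts the siNT sums were 6915 ± 252 for MGAT and 7084 ± 124 for GALNT, so the order of these families turned with the length. The median-length transcript is a short model for some members (0.739 kilobases in FUT8, 0.596 in ST6GAL1, against 5.166 and 4.645 for the longest), so levels per kilobase are uncertain. The B3GNT family summed to 1758 ± 22.2 and 3293 ± 117 per kilobase, 1.87-fold higher in siTAZ, or 1.77-fold with the longest transcripts. ST6GAL1 was 1.63-fold higher on both. The FUT family was at 0.83 of siNT, or 0.90 with the longest transcripts, and B3GALT at 0.86 or 0.83. GCNT was 1.41-fold higher on the first scale and at 0.83 on the second, so its sum has no direction that holds, and ST3GAL was 1.24-fold higher or 1.04-fold with overlapping groups. FUT8, MGAT4B, B3GNT3, B4GALT5 and ST6GALNAC4 led their families under both lengths, whereas the leader changed with the length in GALNT, GCNT, B3GALT and ST3GAL.

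Genes that supply and surround these enzymes were read from lists of glycan genes, to be set beside 28.3% of all genes tested higher and 27.5% lower. Of 29 genes of nucleotide sugar synthesis, 11 rose, 8 fell and 10 missed the threshold (median change in log2 0.02). In the hexosamine pathway, which makes the UDP-N-acetylglucosamine that GCNT, MGAT and B3GNT enzymes use, the rate-limiting GFPT1 rose from 4922, 4536 and 4519 to 7571, 8353 and 8402 (1.74-fold, limma adjusted p = 1.3e-09). Its paralog GFPT2 fell from 952, 857 and 961 to 394, 299 and 304 (2.78-fold, limma adjusted p = 8.7e-10). GNPNAT1, the acetyltransferase of that pathway, rose 2.01-fold, from 1811 ± 117 to 3638 ± 277. Of 19 genes listed for the SLC35 family of nucleotide sugar transporters and relatives, 7 rose, 5 fell and 7 missed it (median -0.04). The list goes by family, and not every gene in it need carry a nucleotide sugar. SLC35D1 and SLC35D2 rose 1.86-fold and 1.52-fold, and SLC35B1 fell 1.5-fold.

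Against the same 28.3% and 27.5% of all genes, of 24 listed other Golgi glycan enzymes, 10 rose, 7 fell and 7 missed it (median 0.02). B4GALNT3, which makes the LacdiNAc structure, rose 2.66-fold, from 634 ± 66.6 to 1686 ± 64.8, LFNG, the fringe enzyme that extends O-fucose on Notch, rose 2.16-fold and the mannosidase MAN1A1 2.06-fold. Of 20 glycosaminoglycan enzymes, 10 rose, 5 fell and 5 did not pass (median 0.14), with GLCE 2.02-fold higher, CSGALNACT2 1.96-fold higher and EXTL3 1.62-fold lower. CSGALNACT1, a relative of CSGALNACT2, fell 3.18-fold, from 216 ± 28.9 to 68.1 ± 7.43 (limma adjusted p = 1.6e-08). It is outside the rule for named genes and was chosen after its values were seen. Of 34 genes that assemble and attach N-glycans in the endoplasmic reticulum, 7 rose, 10 fell and 17 did not pass (median -0.07), and the dolichol phosphate mannose synthase subunit DPM3 fell 2.57-fold, from 328 ± 12.2 to 127 ± 4.11. DPM2 and MPDU1 fell 1.36-fold and 1.27-fold. Of 24 Golgi scaffold and ion genes, 12 rose, 5 fell and 7 did not pass (median 0.09), with COG6 1.62-fold, GOLGB1 1.43-fold and GOLGA3 1.37-fold higher. All genes named in these lists passed limma's test over all genes.

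**Figure D4:**
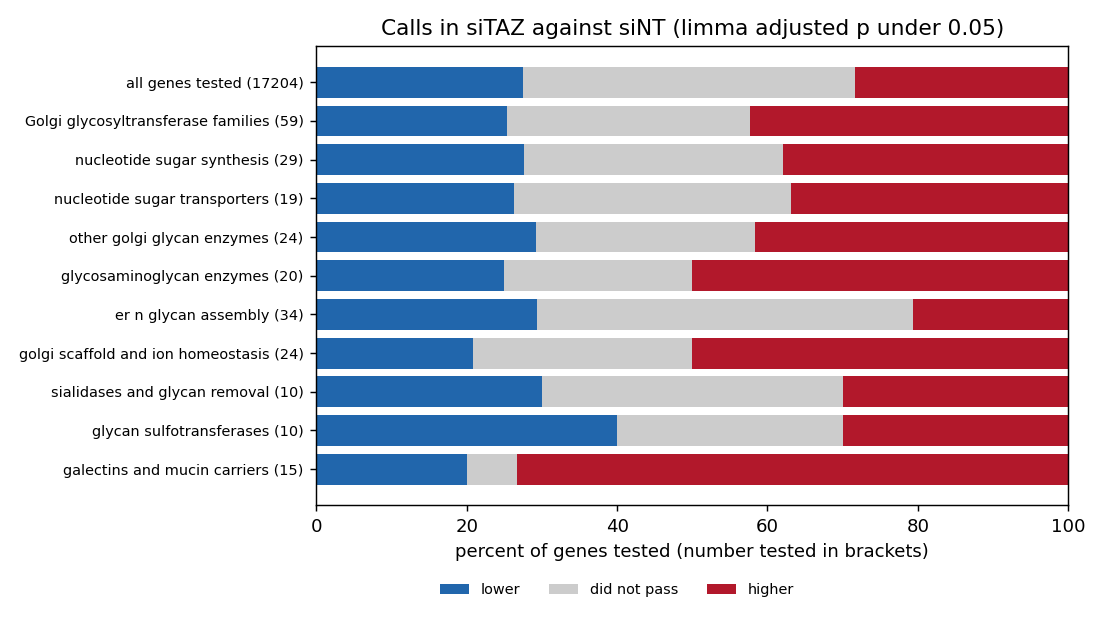
Share of genes called lower (blue), not passing (grey) and higher (red) at a limma adjusted p under 0.05, for all 17204 genes tested, the 59 members and 9 lists of glycan genes. The members have 42.4% higher against 28.3% of all genes. The endoplasmic reticulum list has 10 of 34 genes lower, near the 27.5% of all genes, and 7 higher, beside 28.3%.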

How the data were processed

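Poly(A) RNA of 6 samples was sequenced from stranded libraries, per the labels' protocols. FastQC, HISAT2, HTSeq, DESeq2 and the build hg19 are named in the submitters' processing notes, and the versions, annotation, strand setting and gene filter are not stated there. The deposited values are a signal: the authors' reads per gene divided by 1 size factor per library. In each library 100% of the values were whole multiples of 1 read within 0.001, which gave back the reads, and the size factors were 0.828 to 1.17. Symbols came from a gene name table (16662 genes) and GENCODE 29 (81), and 468 identifiers stayed unnamed. GENCODE 29 is of GRCh38 and served for names, lengths and overlaps.

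Limma 3.58.1 (R 4.3.3) with an intensity trend was fitted, with group as the only term, to log2 of the deposited value plus 1 in 17204 genes whose mean reached 1, and Benjamini-Hochberg adjustment. Changes in log2 are on that scale and come out too small for low genes, and folds are of group means. Alternatives were edgeR 4.0.16, DESeq2 1.42.0 and voom on the recovered reads, other scalings, pseudocounts and filters, a replicate block, a fold of 1.2 as the null (treat) and each library left out. Members and lists were chosen with earlier results of these data known. Values in every library are given for the leader of each family by level per length, for members passing with at least 1.5-fold and a mean of at least 10, and for their close relatives. Pairs of enzymes set as ratios, and the promoters shown, were chosen after their values were seen. From each list up to 3 called genes of smallest adjusted p are named. The labels call the samples of a group biological replicates and do not say whether they were separate thaws, passages or days, so p-values cover the spread between these samples. No replicate was a copy of another (chi-square per degree of freedom 2.64 to 8.10 within groups). Python 3.11.15, pandas 2.3.3, numpy 2.4.6, scipy 1.17.1 and matplotlib 3.10.9 were used.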

Additional observations from a re-analysis of the deposited data

How the results depend on the processing

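Over 17 alternatives, 23 of the 40 called members and 9 of the 19 uncalled ones kept their direction and their side of the threshold wherever they were tested. The filter of 1 CPM left out MGAT3 among the 23, and B3GNT6 and ST6GALNAC2 among the 9, so these were tested in 16. Apart from treat, the members called higher ran from 23 to 27 and those called lower from 10 to 15, and all genes called from 8540 to 9674. Against a fold of 1.2, limma's treat called 17 members higher and 6 lower, 36 and 14 list genes (74 and 50 against no change) and 4417 of all genes, since small changes no longer count. Same-numbered libraries did not deviate together (r -0.085, -0.0219 and 0.00612, against -0.0519 to 0.0668 for other pairs of numbers). With 3 libraries per group this cannot show whether the samples were paired. With the replicate block, 23 members were higher and 11 lower, 64 list genes were higher and 42 lower, and 8701 genes were called in all. With the longest transcripts the family folds were 0.90 for FUT, 1.77 for B3GNT, 1.04 for ST3GAL and, reversed, 0.83 for GCNT. Total count scaling, which moved the median of all genes to 0.05, turned B3GNT7 to 0.027. Leaving out 1 library turned 6 uncalled changes in log2, whose ranges were -0.026 to 0.049 for MGAT1, -0.0097 to 0.062 for MGAT4B, -0.17 to 0.39 for MGAT5B, -0.11 to 0.064 for B3GNT7, -0.028 to 0.302 for ST6GALNAC3 and -0.18 to 0.0021 for ST6GALNAC5. The cause was not tested. In edgeR's quasi-likelihood test ST3GAL6 and ST6GALNAC6 passed as higher (adjusted p = 0.041 and 0.045). Members under about 30 reads per library, such as MGAT3, GCNT1 and MGAT4A, have folds that the depth leaves wide.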

Other observations

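Genes that remove, sulfate, bind or carry these glycans were not described above. Of 10 listed genes of sialidases and glycan removal, 3 rose, 3 fell and 4 missed the threshold (median change in log2 0.02), beside 28.3% of all genes higher and 27.5% lower. NEU1, the lysosomal sialidase, fell 1.58-fold, from 2582, 2777 and 2588 in siNT to 1805, 1606 and 1626 in siTAZ (limma adjusted p = 3.8e-08), whereas the lysosomal fucosidase FUCA1 rose 1.66-fold and the galactosidase GLB1 1.26-fold. Of 10 listed glycan sulfotransferases, 3 rose, 4 fell and 3 did not pass. GAL3ST1, the sulfatide synthase, rose 2.12-fold, from 352 ± 28.7 to 745 ± 85.2, and the chondroitin and dermatan sulfotransferases CHST11 and CHST14 fell 1.83-fold and 1.28-fold, each past limma's threshold.

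Galectins, which bind galactose-ending chains, and mucins, the main carriers of O-glycans, gave 11 rises, 3 falls and 1 gene that did not pass among 15 listed, with a median log2 fold change of 1.13, beside the same shares of all genes. LGALS4, a gut galectin that is also one of the gastrointestinal markers, was at 37.7, 41.7 and 20.5 in siNT and 537, 421 and 352 in siTAZ (limma adjusted p = 2.0e-10). LGALS8 rose 2.47-fold, from 2429 ± 167 to 6003 ± 522, and LGALS2 rose 4.42-fold. LGALS1, the most read galectin, fell 1.63-fold, from 21101 ± 1209 to 12931 ± 941 (limma adjusted p = 1.4e-08). MUC5B, a secreted gel-forming mucin, went from 16.8, 14.96 and 15.7 to 167, 131 and 115 (limma adjusted p = 5.0e-10), and MUC13, a membrane mucin of the gut, rose 1.63-fold, from 2695 ± 33.2 to 4379 ± 84.6. The membrane mucins MUC1 and MUC12 fell, MUC1 1.502-fold from 98.9 ± 5.13 to 65.8 ± 6.002 (limma adjusted p = 0.0017) and MUC12 1.46-fold from 93.6 ± 10.2 to 64.2 ± 4.07 (limma adjusted p = 0.0043). LGALS1, MUC1, MUC5B, MUC12 and MUC13 are outside the rule for named genes and were chosen after their values were seen. These galectin and mucin genes moved in the same libraries as the gastrointestinal markers, and whether the 2 are linked was not tested.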
